A study of Mus musculus with 9 samples.

Results

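Of the 17565 genes in the deposited gene table, 127 carry a symbol of an ion channel family: potassium (Kcn), voltage-gated calcium (Cacn) and sodium (Scn), TRP (Trpc, Trpm, Trpv), Piezo, CLC chloride (Clcn), anoctamin (Ano) and tweety (Ttyh) genes. The 52 described here are those with 0.5 CPM or more (counts per library size, as the authors scaled them) in at least 3 of the 9 libraries. The rule used a level in any library and no difference between groups. Of the 52, 46 reached 0.5 CPM in a library of every group and 40 in all 9 libraries. Another 3 reached it in libraries of 2 groups (Cacna1g, Kcnab3 and Kcnn3), and 3 in libraries of 1 group only: Kcnab1 in TAZ4A, and Kcna5 and Scn11a in TAZ-CAMTA1. Those 6 passed through the groups in which they are high, so a difference between groups was built into their selection. Just inside the threshold were Cacna1g and Kcnn3, whose third-highest values were 0.706 and 0.772 CPM, and just outside were Ano2 and Kcnn1, at 0.491 and 0.480 CPM. All 75 symbols left out had reads in at least 1 library, with no value above 0.710 CPM. Piezo2 was among them, at 0.305 CPM or less. The match was by symbol, and 2 of the 52 encode no channel subunit: Trpc4ap, a TRPC4-associated ubiquitin ligase adaptor, and Kcnq1ot1, a non-coding RNA antisense to Kcnq1.

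The cells were MS1, an immortalized endothelial line from mouse pancreatic islets, carrying lentiviral vectors of the pCDH family. Control cells (Ctrl in the labels) carried pCDH-puro. Cells of the second group stably carried pCDH-TAZS4A (labelled TAZ4A) and cells of the third pCDH-TAZ-CAMTA1, with 3 libraries of poly-A RNA per group. TAZ is the Hippo pathway co-activator encoded by Wwtr1, TAZ4A is known as a form made resistant to Hippo inhibition by serine-to-alanine changes, and TAZ-CAMTA1 joins it to CAMTA1, as in the vascular cancer epithelioid hemangioendothelioma. The comparison asks how the fusion and the activated parent protein differ in the genes they change. The labels do not say whether a line is a clone or a pool, or whether replicates are separate cultures, so p-values measure the spread between these libraries, which may be technical.

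Ion channels are membrane proteins that let selected ions through, and most are built from a pore-forming subunit and partner subunits that set its trafficking and gating. In endothelial cells, which do not fire action potentials, potassium channels set the membrane potential that drives calcium entry, Piezo and some TRP channels respond to flow and stretch, and CLC and anoctamin proteins move chloride or scramble lipids at the surface or in endosomes and lysosomes. Pore subunits of voltage-gated sodium and calcium channels are best known from nerve and muscle.

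Assigned reads ranged from 21966004 to 34224715 per library. The line carried its endothelial genes: 11 of 12 listed markers were expressed, Cldn5 being near 0, and their summed level was 11080 to 11320 CPM in control, 7336 to 7584 in TAZ4A and 10687 to 12224 in TAZ-CAMTA1. Markers of neurons and glia summed to at most 0.527 CPM in any library and islet markers to at most 1.28 CPM, from Gcg and Chga, the 2 of 6 analysed. The 8 smooth muscle and pericyte markers, 3 of them above the filter, summed to 2.54 to 3.16 CPM in control, 12.3 to 13.9 in TAZ4A and 5.37 to 6.54 in TAZ-CAMTA1. In TAZ4A most of this sum was Cnn1 (7.25 CPM on average, beside 0.0104 in control) and Pdgfrb (4.30, beside 2.49), while Acta2 averaged 0.757 CPM, beside 0.246. The 5 fibroblast markers summed to 3.02 to 3.71, 11.4 to 12.6 and 5.61 to 10.5 CPM. The epithelial markers, mostly Krt18, summed to 20.8 to 24.03, 27.7 to 29.9 and 21.01 to 49.5 CPM, and Krt19 averaged 0.501, 9.05 and 1.31 CPM. The blood markers, nearly all Cd68, summed to 451 to 524, 395 to 404 and 462 to 712 CPM, and Lyz2 averaged 0.0104, 1.45 and 6.83 CPM, with Ptprc averaging below 0.1 CPM in each group. Acinar markers summed to at most 0.368 CPM. The part of these shifts in the channel results was not tested, and in bulk RNA fewer cells of a type and less RNA per cell cannot be told apart. Wwtr1 went against the TAZ4A label (551 ± 17.6 CPM in control, 325 ± 8.7002 with TAZ4A, 437 ± 94.4 with TAZ-CAMTA1, SD, n = 3 each), so the label is not checked by the endogenous gene's counts, and "TAZ4A" below stands for the libraries labelled so. Camta1 was at 4.05 ± 0.923, 4.91 ± 0.253 and 13.1 ± 0.579 CPM. One library stood apart: TAZ-CAMTA1 replicate 2 correlated with its group at r = 0.962 to 0.963, against 0.997 or more for every other pair of replicates, and had 3.99% of its reads in ribosomal protein genes against 1.88% to 2.16% elsewhere. It was the lowest of its group in 29 of the 52 genes and the highest in 17. Counts are therefore given with and without it.

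By length-corrected level (TPM), the tweety, anoctamin and CLC families had the highest sums among the channel classes of MS1 cells, at 419 ± 29.8, 184 ± 8.22 and 162 ± 8.93 TPM in control, and calcium channel pore subunits were near the bottom. Ttyh3, a tweety family member described as an anion channel, was the most abundant of the 52, at 387 ± 28.4 TPM (SD, n = 3, as in the sums) in control. Trpc4ap averaged 209 TPM over the 9 libraries, the lipid scramblase Ano6 102 and the lysosomal chloride-proton exchanger Clcn7 62.5. Trpm7, a cation channel fused to a kinase, Ano10, the flow-sensing channel Piezo1, the endosomal exchanger Clcn3 and the hERG potassium channel Kcnh2 followed at 47.4, 44.3, 44.1, 42.4 and 42.3 TPM. The 3 calcium channel pore subunits together reached 0.797 ± 0.0966 TPM in control. The 4 potassium channel partners summed to 10.7 ± 0.332, 13.6 ± 0.544 and 42.7 ± 1.23 TPM, and the 6 calcium channel partners to 40.7 ± 1.13, 52.3 ± 1.66 and 72.7 ± 7.09 TPM. In both classes the TAZ-CAMTA1 libraries lay above every other library.

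**Figure D1:**
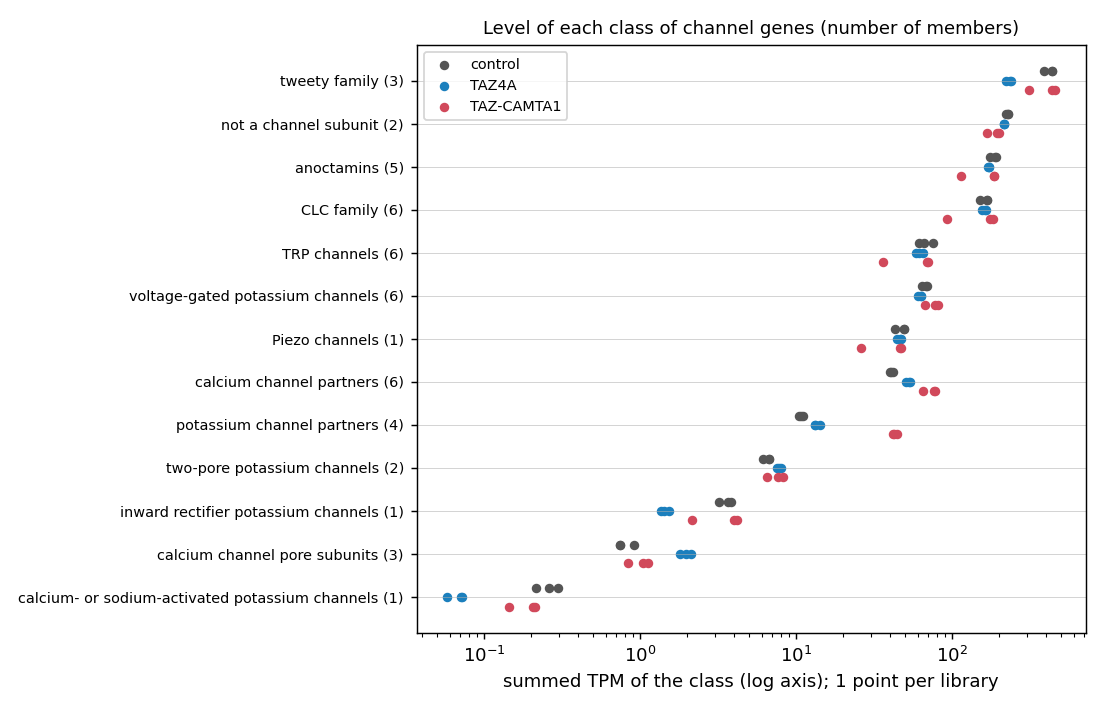
Summed TPM (log axis) of 13 classes of channel genes, 1 point per library, by group; the number of members is in brackets. Both partner classes are highest in TAZ-CAMTA1, the tweety family is lowest in TAZ4A (231 ± 7.397 TPM against 419 ± 29.8 in control), and 1 TAZ-CAMTA1 library, replicate 2, lies apart in several classes.

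In TAZ4A against control, 12 of the 52 genes rose and 12 fell past the threshold (limma, adjusted p under 0.05 over all 12350 genes tested), beside 13.2% of all genes tested that rose and 11.7% that fell. In TAZ-CAMTA1 against control, 21 rose and 7 fell, beside 16.8% and 15.3% of all genes. In TAZ-CAMTA1 against TAZ4A, 21 rose and 7 fell, beside 19.4% and 18.5%. As shares of the 52 these are 23.1% and 23.1%, then 40.4% and 13.5% in each of the other comparisons, so the share that rose was above the background in all 3. With all 9 libraries, the share that fell was above it in TAZ4A, near it in TAZ-CAMTA1 against control and lower between the constructs. In either direction 24.9%, 32.1% and 37.9% of all genes were called. Among the 46 genes that reached 0.5 CPM in every group the counts were 9 rising and 11 falling, 17 and 7, and 17 and 6. Without TAZ-CAMTA1 replicate 2 they were 17 and 17 of the 52 (28.1% and 30.3% of all genes), 24 and 10 (28.5% and 32.3%), and 26 and 9 (30.8% and 32.2%), where 58.3%, 60.9% and 63.0% of all genes were called in either direction. Without any one control or TAZ4A library, 4 genes fell in TAZ-CAMTA1 against control in place of 7, while 1111 to 1521 of all genes fell in place of 1887. With every library scaled to the same sum, 1959 of all genes rose and 1108 fell in TAZ4A against control, in place of 1630 and 1447, while 12 rose and 12 fell among the 52. The median log2 fold changes of the 52 were 0.03, 0.15 and 0.08, beside -0.01, -0.03 and -0.02 over all genes. The 2 contrasts with control share the same 3 control libraries. Side by side, 9 genes rose in both, 4 fell in both (Clcn7, Scn3a, Kcnk6 and Ttyh1), 5 fell in TAZ4A and rose in TAZ-CAMTA1 (Trpm4, Cacna2d4, Cacng1, Kcne3 and Kcnq1), and 0 did the reverse. Of the 52, 16 were called in no comparison, and 7 in none without replicate 2. The shares of all genes with these joint calls, or with none, were not counted, so these counts have no background beside them.

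**Figure D2:**
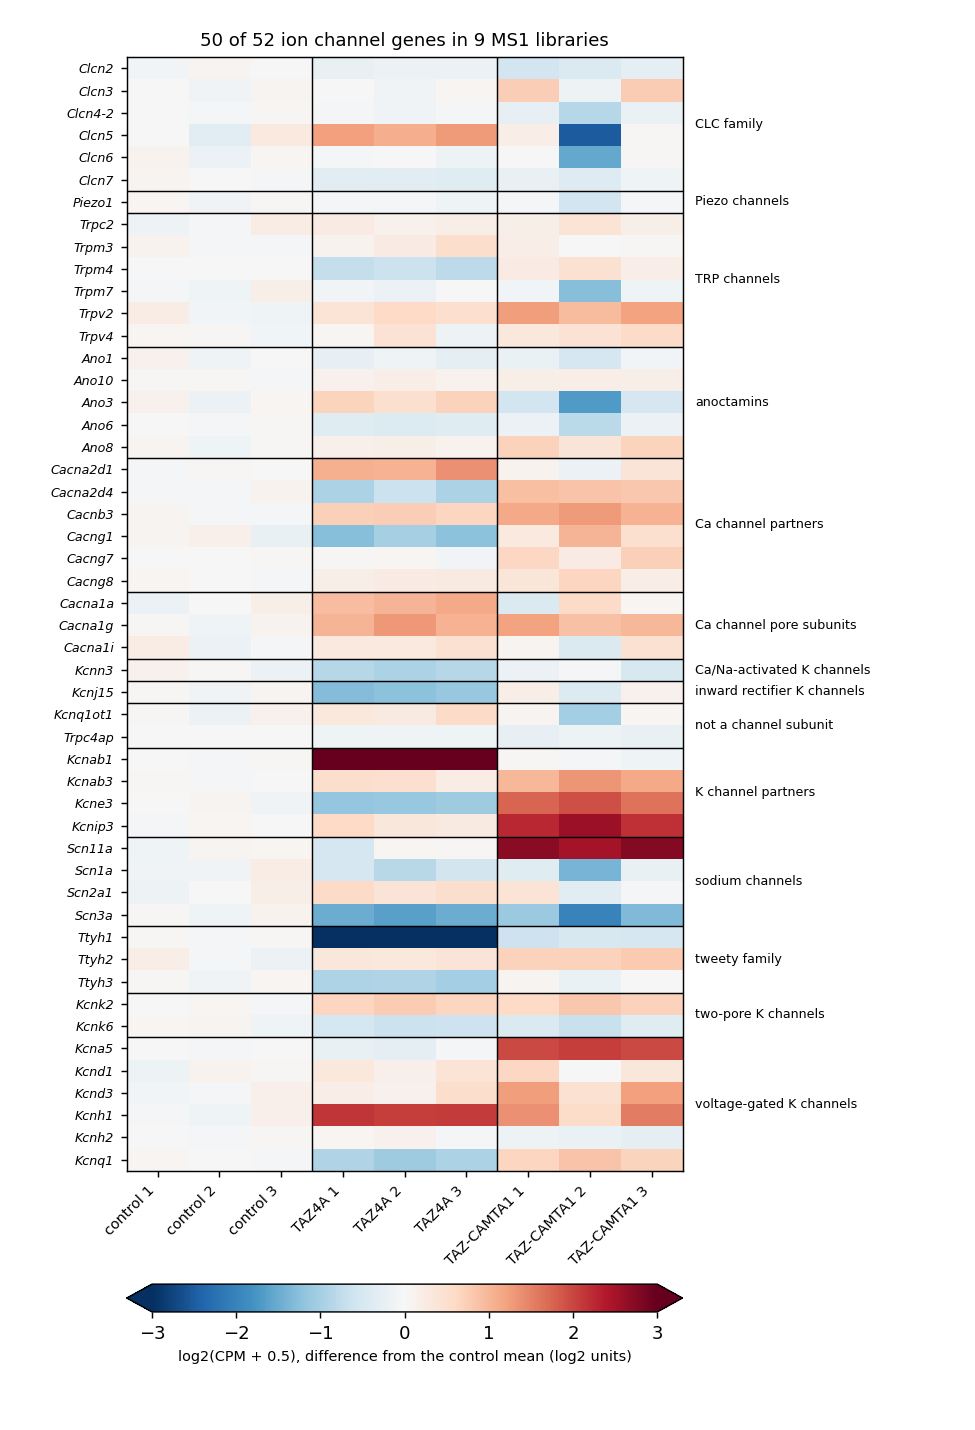
Difference of each library from the control mean in log2(CPM + 0.5), for 50 of the 52 genes (rows, by class) and 9 libraries (columns); the colour scale ends at 3 and -3. Kcnab1 and Ttyh1 mark the TAZ4A libraries, Scn11a, Kcnip3, Kcna5 and Kcne3 mark the TAZ-CAMTA1 libraries, and TAZ-CAMTA1 replicate 2 departs from its group in Clcn5, Clcn6, Trpm7, Ano3 and Scn1a.

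Among the potassium channel pore subunits the largest rises were in Kcnh1 and Kcna5, and Kcnq1 moved in opposite directions under the 2 constructs. Kcnq1 (Kv7.1) forms the slow delayed rectifier of heart and a basolateral channel of epithelia. It stood at 26.4, 25.1 and 24.8 CPM in the control libraries, against 13.4, 12.0 and 12.8 CPM with TAZ4A and 40.3, 46.1 and 41.0 CPM with TAZ-CAMTA1. The 3 groups did not overlap, with TAZ4A lowest and TAZ-CAMTA1 highest. Its log2 fold change (± standard error, here and below, on the log2(CPM + 0.5) scale) was -0.97 ± 0.08 (adjusted p = 4.8e-05) in TAZ4A and 0.73 ± 0.08 (adjusted p = 0.00033) in TAZ-CAMTA1 against control, and 1.70 ± 0.08 (adjusted p = 1.9e-06) between the constructs. Kcnq1 shares its locus with the antisense RNA Kcnq1ot1, and whether the authors' counting used strand is not given in the sources used here. Spliced reads on the Kcnq1 strand, which Kcnq1ot1, a single exon, does not give, had the same order. They were at 32.9 ± 0.792 RPM in control, 16.6 ± 1.15 RPM with TAZ4A and 56.9 ± 2.75 RPM with TAZ-CAMTA1. RPM here counts unique junction reads over the annotated introns of any transcript of a gene, scaled to their library total. All 15 introns of Kcnq1-201 had reads in each group. Kcnq1ot1 itself was at 3.76, 3.17 and 4.01 CPM in control, 4.61, 4.45 and 5.65 CPM with TAZ4A and 3.86, 1.54 and 3.79 CPM with TAZ-CAMTA1, and it passed the threshold in no comparison.

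Kcna5 encodes Kv1.5, a delayed rectifier of vascular muscle and atrium. It was at 0.418, 0.389 and 0.407 CPM in the control libraries, against 0.279, 0.234 and 0.368 CPM with TAZ4A and 3.06, 3.32 and 3.10 CPM with TAZ-CAMTA1. Each TAZ-CAMTA1 library was far above the other 6. The log2 fold change was 2.02 ± 0.10 (adjusted p = 3.5e-06) against control and 2.21 ± 0.10 (adjusted p = 9.4e-07) against TAZ4A. Kcna5 passed the filter only through the TAZ-CAMTA1 libraries, so a difference from the other groups was built into its selection. Kcnh1 (EAG1), a channel of brain and many tumours, was at 0.511, 0.448 and 0.658 CPM in the control libraries, against 4.09, 3.83 and 3.93 CPM with TAZ4A and 2.16, 1.01 and 2.49 CPM with TAZ-CAMTA1. TAZ4A was highest, TAZ-CAMTA1 intermediate and control lowest, with no overlap. It rose by 2.10 ± 0.23 on the log2 scale in TAZ4A (adjusted p = 0.00025) and by 1.14 ± 0.23 in TAZ-CAMTA1 (adjusted p = 0.0064). Its few junction reads, 3 in control, 32 with TAZ4A and 6 with TAZ-CAMTA1, did not separate TAZ-CAMTA1 from control. They ran from 0 to 0.206 RPM in control and from 0 to 0.530 RPM with TAZ-CAMTA1. Kcnd3 (Kv4.3), the A-type channel that Kcnip proteins bind, was at 1.58, 1.61 and 1.97 CPM in control, 2.04, 1.93 and 2.67 CPM with TAZ4A and 4.75, 2.52 and 4.67 CPM with TAZ-CAMTA1. It rose in TAZ-CAMTA1 against control (0.97 ± 0.22, adjusted p = 0.011). Against TAZ4A it was 0.69 ± 0.22 (adjusted p = 0.038), a call lost without any single library other than TAZ4A replicate 3 and TAZ-CAMTA1 replicate 2 (adjusted p = 0.055 to 0.12). Kcnd3 had few junction reads, 10 in control, 6 with TAZ4A and 16 with TAZ-CAMTA1, and they did not separate the groups. Its exons overlap the antisense gene Kcnd3os. Kcnh2, the most abundant voltage-gated potassium channel, was at 76.8, 73.1 and 78.0 CPM in control, 79.3, 83.0 and 74.3 CPM with TAZ4A and 67.8, 66.1 and 61.8 CPM with TAZ-CAMTA1. It was lower in TAZ-CAMTA1 than in TAZ4A (-0.27 ± 0.07, adjusted p = 0.020), a call lost without TAZ4A replicate 1 or 2 or TAZ-CAMTA1 replicate 3 (adjusted p = 0.073, 0.087 and 0.055). Kcnd1 (Kv4.1), a relative of Kcnd3, ranged from 1.02 to 2.10 CPM and was called in no comparison with all 9 libraries.

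The other potassium pores were few. Kcnj15 (Kir4.2), the single inward rectifier above the threshold, was at 8.17, 7.29 and 8.43 CPM in the control libraries, against 2.94, 3.10 and 3.31 CPM with TAZ4A and 9.14, 5.84 and 8.72 CPM with TAZ-CAMTA1. The TAZ4A values were all below the others, and it fell in TAZ4A (-1.22 ± 0.16, adjusted p = 0.00062) and was not called in TAZ-CAMTA1. Kcnn3 (SK3), a calcium-activated channel known from endothelial hyperpolarization, was at 0.929, 0.837 and 0.658 CPM in control, 0.217, 0.176 and 0.215 CPM with TAZ4A and 0.648, 0.772 and 0.436 CPM with TAZ-CAMTA1. It fell in TAZ4A (-0.89 ± 0.14, adjusted p = 0.0015). Kcnn3 passed the filter only through control and TAZ-CAMTA1 libraries, so a difference from TAZ4A was built into its selection. Of the two-pore channels, which carry leak current, the stretch-sensitive TREK-1 gene Kcnk2 was at 5.57, 5.77 and 5.36 CPM in control, 9.04, 9.77 and 8.99 CPM with TAZ4A and 8.71, 10.04 and 9.33 CPM with TAZ-CAMTA1, above control in all 6 libraries of both constructs, with log2 fold changes of 0.69 ± 0.09 (adjusted p = 0.00048) in TAZ4A and 0.70 ± 0.09 (adjusted p = 0.00048) in TAZ-CAMTA1. Kcnk6 (TWIK-2) was at 5.62, 5.71 and 4.83 CPM in control, 3.59, 3.25 and 3.31 CPM with TAZ4A and 3.83, 3.22 and 4.10 CPM with TAZ-CAMTA1, below control in both (-0.60 ± 0.11, adjusted p = 0.0045 and -0.48 ± 0.11, adjusted p = 0.011). The Kcnk2, Kcnj15 and Kcnk6 reads were hardly spliced. Kcnk2 had 15 unique reads over its annotated introns beside 2198 reads assigned to the gene, and 1 of 6 introns of Kcnk2-206 had reads. Kcnj15 had 10 beside 1668 and Kcnk6 11 beside 1115, where the median of the 50 genes with an intron was 23.9 junction reads per 100 gene reads. For these genes the level is that of RNA read at the locus, and the deposited junctions show little of the annotated coding transcript.

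The 4 potassium channel partners held the largest rise of the 52, and 3 of the 4 rose under each construct. Of all genes 13.2% rose in TAZ4A and 16.8% in TAZ-CAMTA1. Among the 4, Kcnab1 and Kcnab3 passed the filter only through groups in which they are high. Kcnab1 encodes Kv beta-1, a cytoplasmic subunit that speeds inactivation of Kv1 channels. It was at 0.0464, 0.0299 and 0.0627 CPM in the control libraries, against 7.95, 7.84 and 7.89 CPM with TAZ4A and 0.0617, 0.0336 and 0 CPM with TAZ-CAMTA1. In reads, control had 4 in all, TAZ4A 782 and TAZ-CAMTA1 3, so the gene was read in one group and was at the limit of counting in the others. The ratio of TAZ4A to control was 171, with an exact 95% interval of 66.7 to 631 that covers counting error only, and to TAZ-CAMTA1 it was 224 (76.3 to 1088). The log2 fold change on the log2(CPM + 0.5) scale, which understates it, was 3.94 ± 0.09 (adjusted p = 3.2e-08). Kcnab1 passed the filter only through the TAZ4A libraries, so a difference from the other groups was built into its selection. Spliced reads placed this RNA within the gene. In TAZ4A, 12 of the 13 introns of Kcnab1-201 had reads, from exon 2 to exon 14. Over the annotated introns of the gene, of any transcript, TAZ4A had 313 unique reads, beside 3 in control and 0 in TAZ-CAMTA1. No read joined exons 1 and 2 in any library, where a count of 0 allows up to 3 reads. The exon 2 acceptor was instead joined by 3 reads to the second exon of Kcnab1-204, and by 6 reads to a donor at 65187516 on chromosome 3 that GENCODE vM21 does not annotate.

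The other 3 partners rose in TAZ-CAMTA1. Kcnip3 encodes calsenilin, also called DREAM, a calcium sensor that binds Kv4 channels at the membrane and represses transcription in the nucleus. It was at 4.04, 4.36 and 4.20 CPM in the control libraries, against 6.65, 5.47 and 5.19 CPM with TAZ4A and 22.1, 27.5 and 21.0 CPM with TAZ-CAMTA1. The TAZ-CAMTA1 libraries stood well above the other 6, and the log2 fold change was 2.35 ± 0.13 (adjusted p = 6.7e-06) against control and 1.94 ± 0.13 (adjusted p = 1.3e-05) against TAZ4A. Its smaller rise in TAZ4A (0.41 ± 0.13, adjusted p = 0.048) was lost in 12 of 22 alternatives, among them without any one library of control or TAZ4A or without TAZ-CAMTA1 replicate 1 (adjusted p = 0.062 to 0.17). Kcne3 encodes a single-span subunit that holds Kcnq1 channels open. It was at 5.39, 5.68 and 4.95 CPM in the control libraries, against 2.10, 2.14 and 2.30 CPM with TAZ4A and 19.0, 21.7 and 17.6 CPM with TAZ-CAMTA1. The groups did not overlap and kept the order of Kcnq1, with TAZ4A lowest. Kcne3 fell in TAZ4A (-1.12 ± 0.10, adjusted p = 7.4e-05), rose in TAZ-CAMTA1 (1.77 ± 0.10, adjusted p = 8.4e-06) and differed between the constructs by 2.89 ± 0.10 (adjusted p = 3.5e-07). Kcnab3, a relative of Kcnab1, was at 0.325, 0.269 and 0.313 CPM in control, 0.650, 0.644 and 0.430 CPM with TAZ4A and 1.11, 1.51 and 1.26 CPM with TAZ-CAMTA1. It rose in both, at 0.41 ± 0.13 (adjusted p = 0.041) in TAZ4A and 1.16 ± 0.13 (adjusted p = 0.00025) in TAZ-CAMTA1. Kcnab3 passed the filter only through the construct libraries, so a difference from control was built into its selection.

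**Figure D3:**
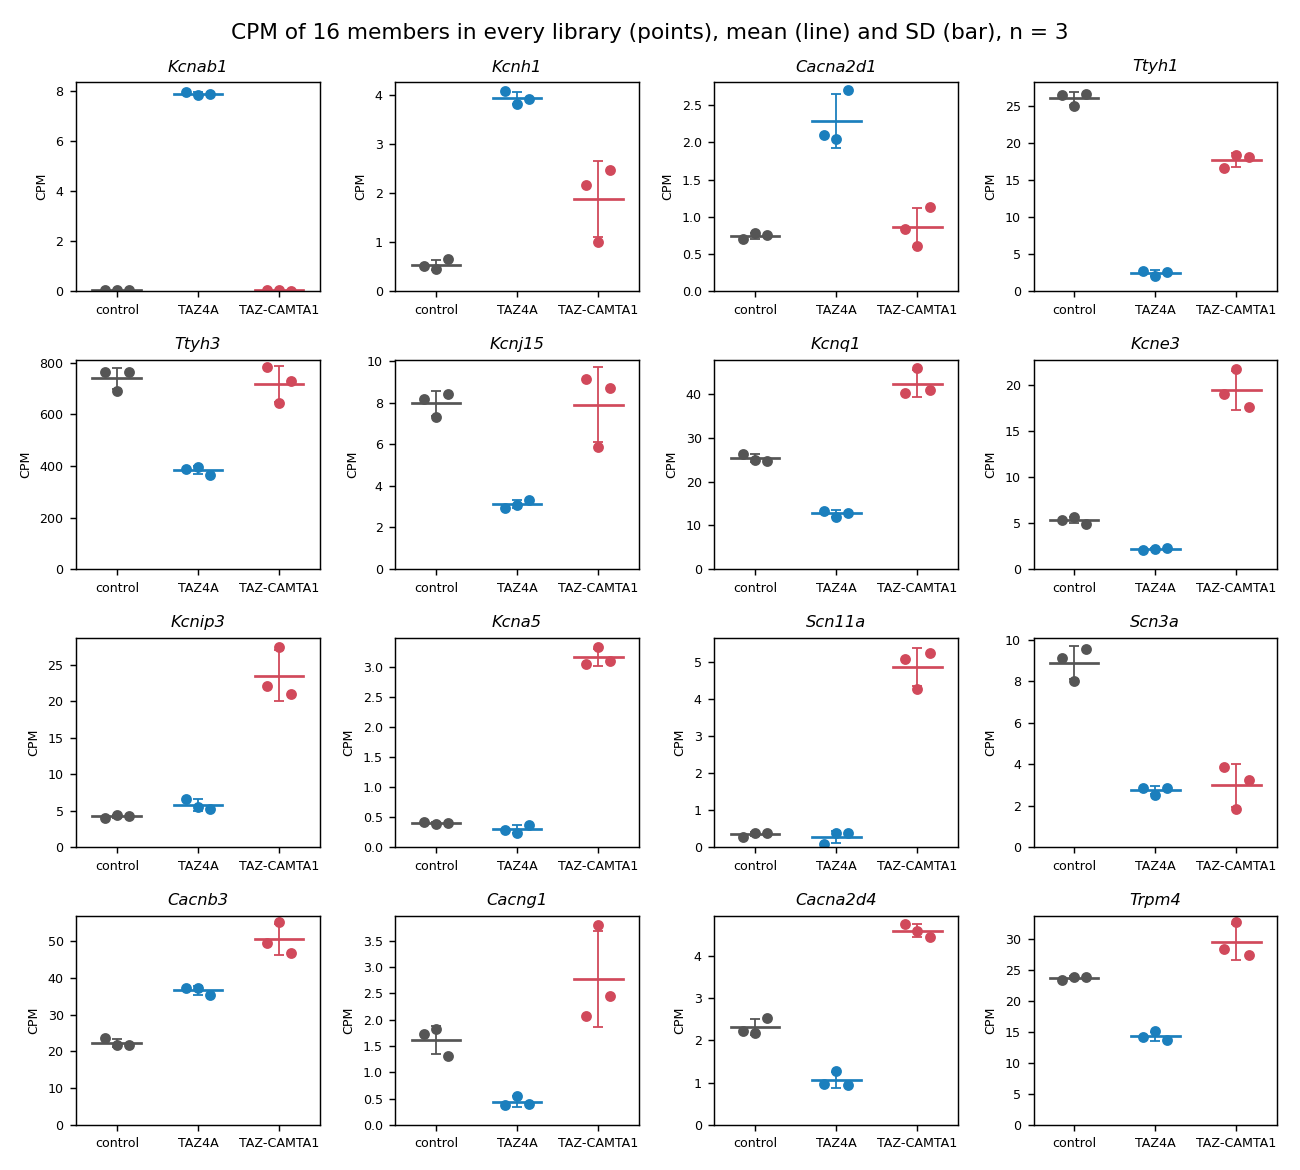
CPM of 16 of the 52 genes in each library (points), with the mean (line) and SD (bar) of the 3 libraries of a group, each axis starting at 0. Kcnab1 is read in TAZ4A at 7.84 to 7.95 CPM and at 0.0627 CPM or less elsewhere, while Kcnq1, Kcne3, Cacna2d4 and Trpm4 are lowest in TAZ4A and highest in TAZ-CAMTA1.

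The 5 genes with the largest rises against control for which RefSeq gives a promoter window are shown here by the 250 bases before their start, since TAZ is known to act through TEAD factors at sites that often lie near AP-1 sites. Of the 52 genes, 37 had a window in the RefSeq table (build GRCm38, the coordinates of mm10), 53 windows in all. Capitals mark GGAATG, the letters of a TEAD site, or TGANTCA, those of an AP-1 site, on either strand. Sequences run 5′ to 3′ on the strand of the gene.
Kcnab1 (chr3:65187853-65188102, plus strand): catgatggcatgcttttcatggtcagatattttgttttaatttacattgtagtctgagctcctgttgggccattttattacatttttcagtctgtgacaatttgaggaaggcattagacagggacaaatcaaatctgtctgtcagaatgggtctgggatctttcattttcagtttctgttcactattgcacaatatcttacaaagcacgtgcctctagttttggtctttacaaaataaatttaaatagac
Scn11a (chr9:119825457-119825706, minus strand): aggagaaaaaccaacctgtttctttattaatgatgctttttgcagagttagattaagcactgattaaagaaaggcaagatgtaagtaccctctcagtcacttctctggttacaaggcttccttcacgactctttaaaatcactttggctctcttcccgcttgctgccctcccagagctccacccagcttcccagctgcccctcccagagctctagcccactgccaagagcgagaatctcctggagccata
Kcnip3 (chr2:127522095-127522344, minus strand): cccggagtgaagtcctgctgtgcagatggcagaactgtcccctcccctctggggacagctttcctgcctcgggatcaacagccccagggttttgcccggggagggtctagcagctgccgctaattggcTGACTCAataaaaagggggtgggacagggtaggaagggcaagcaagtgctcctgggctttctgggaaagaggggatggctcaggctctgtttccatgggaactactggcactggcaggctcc
Kcna5 (chr6:126535556-126535805, minus strand): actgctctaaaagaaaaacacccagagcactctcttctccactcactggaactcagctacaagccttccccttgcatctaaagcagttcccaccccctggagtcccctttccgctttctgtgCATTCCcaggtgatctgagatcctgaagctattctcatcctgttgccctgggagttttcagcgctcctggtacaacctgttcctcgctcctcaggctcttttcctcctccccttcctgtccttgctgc
Kcne3 (chr7:100178433-100178682, plus strand): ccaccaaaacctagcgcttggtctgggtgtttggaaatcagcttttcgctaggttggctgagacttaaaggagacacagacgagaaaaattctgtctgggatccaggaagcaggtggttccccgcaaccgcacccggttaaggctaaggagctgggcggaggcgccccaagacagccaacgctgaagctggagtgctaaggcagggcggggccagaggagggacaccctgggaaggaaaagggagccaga
The Kcnab1 window is the one before the start of Kcnab1-204, and the unannotated donor lies upstream of it. The Kcne3 window lies before the first exon whose donor, at 100178767, the junction reads used. These 2 starts were chosen after those reads were seen. The Kcnip3 window held the AP-1 letters TGACTCA, beginning 122 bases before the start, and the Kcna5 window the TEAD letters CATTCC, beginning 128 bases before it. The other 3 held neither motif in these 250 bases. Kcne3 has another RefSeq window, at the start 100176670, which is not shown. That window held the AP-1 letters TGAATCA, beginning 37 bases before its start. Over the 300-base windows, which run 50 bases past the start, 9 of the 53 (16.98%) held the TEAD letters, beside 14.7% of all 32817 windows in the table, and 3 (5.66%) held the AP-1 letters, beside 7.81% of all. A match of letters is not evidence of binding, and no match says only that the letters are absent from the window.

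Among the sodium channel genes, Scn11a rose in TAZ-CAMTA1 against control and Scn3a fell with both constructs. Scn11a encodes Nav1.9, a persistent sodium channel of pain-sensing neurons. It was at 0.279, 0.389 and 0.376 CPM in the control libraries, against 0.0929, 0.380 and 0.368 CPM with TAZ4A and 5.06, 4.26 and 5.23 CPM with TAZ-CAMTA1. In reads the control libraries had 6, 13 and 12, those with TAZ4A 3, 13 and 12, and those with TAZ-CAMTA1 164, 127 and 120, so the gene was sparsely read outside one group. Its log2 fold change was 2.66 ± 0.17 (adjusted p = 1.6e-05) against control and 2.80 ± 0.17 (adjusted p = 7.2e-06) against TAZ4A. Scn11a passed the filter only through the TAZ-CAMTA1 libraries, so a difference from the other groups was built into its selection. Junction reads ran along the transcript: 25 of the 26 introns of Scn11a-202 were crossed in TAZ-CAMTA1, beside 7 in control and 10 in TAZ4A. Over the annotated introns of the gene, of any transcript, there were 135 unique reads in TAZ-CAMTA1, 12 in control and 11 in TAZ4A.

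Scn3a (Nav1.3), a channel of developing brain, was at 9.15, 8.01 and 9.56 CPM in the control libraries, against 2.85, 2.52 and 2.85 CPM with TAZ4A and 3.86, 1.85 and 3.23 CPM with TAZ-CAMTA1. Both constructs lay below control with no overlap, at -1.54 ± 0.21 (adjusted p = 0.00081) and -1.48 ± 0.21 (adjusted p = 0.0010). Scn1a and Scn2a1, the brain pores Nav1.1 and Nav1.2, ranged over the libraries from 1.28 to 4.92 and from 0.302 to 1.02 CPM and were called in no comparison with all 9 libraries. The 4 sequences that follow are exon junctions by which the spliced RNA of a gene was counted, 15 bases from each exon of the GENCODE vM21 transcript (GRCm38), with the last base of one exon and the first of the next in capitals. They are shown because their reads separate the groups or place the RNA within the gene.
Kcnab1-201, exons 6 and 7: ctactggggtggaaAAgctgagacagaaag
Scn11a-202, exons 6 and 7: tttctgtaatctcaGGtctgaaggtcatcg
Ttyh1-202, exons 6 and 7: gctgccacagctgtGGgcctcagtgacttc
Cacna1a-201, exons 45 and 46: ctgatgtggacacaGGtttggggacagatc
The Kcnab1 junction had 12, 12 and 15 unique reads in the TAZ4A libraries and 0 in the other 6. The Scn11a junction had 4, 3 and 4 in TAZ-CAMTA1, 1 in TAZ4A replicate 3 and 0 elsewhere. The Ttyh1 junction had 20, 19 and 20 in control, and 0, 1 and 1 with TAZ4A, while TAZ-CAMTA1 gave 22, 13 and 20. The Cacna1a junction had 7, 12 and 11 in TAZ4A and 0 in the other 6. With 3 libraries per group an exact two-sided permutation test cannot go below 0.1, so junction reads are given as values with no test.

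**Figure D4:**
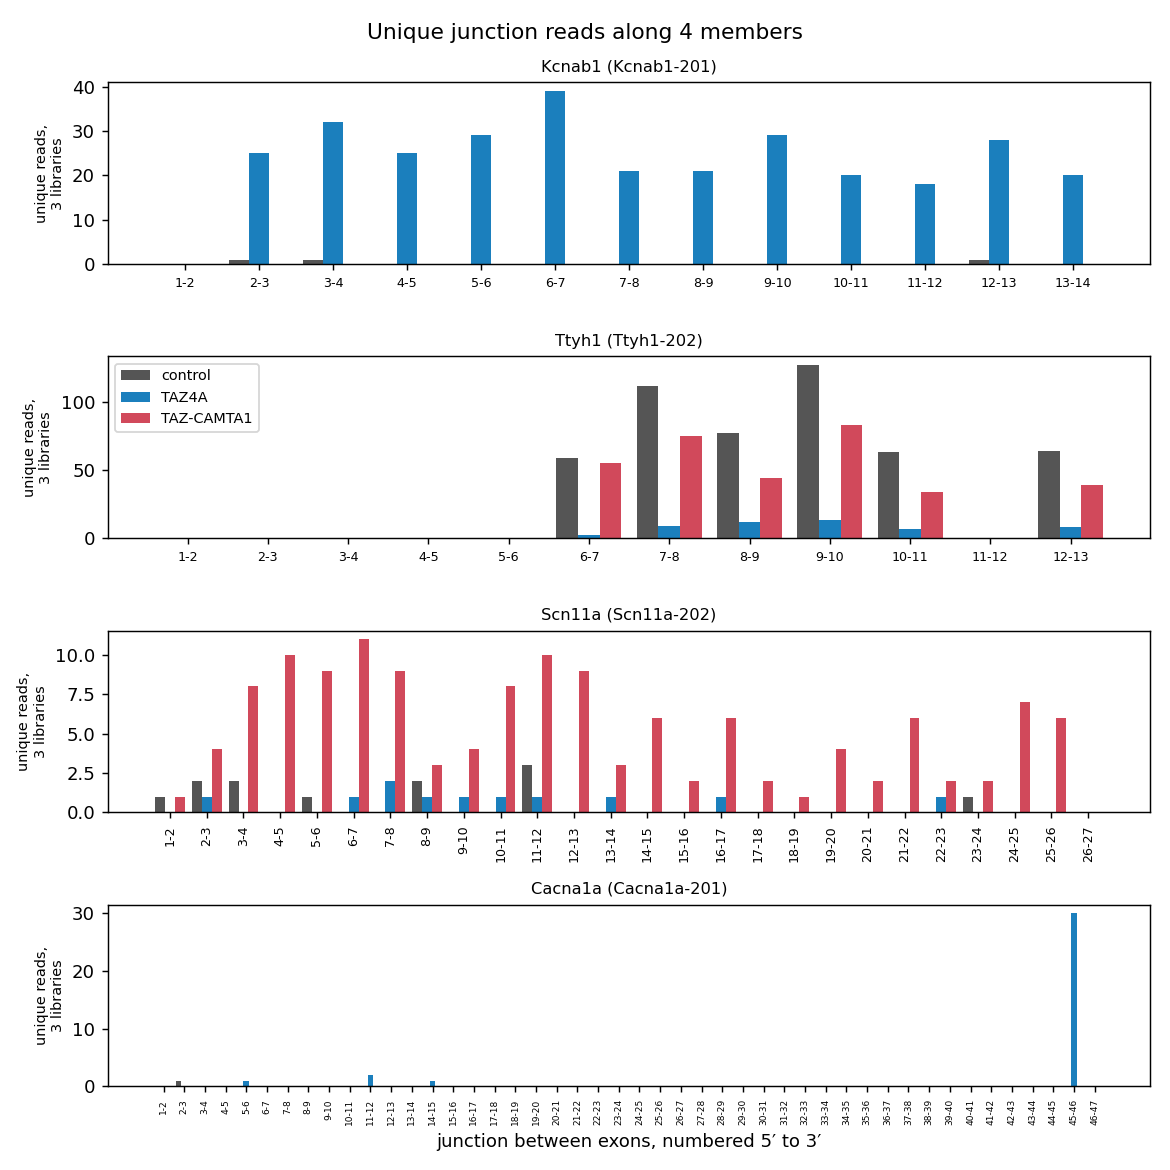
Unique junction reads (y axis, summed over the 3 libraries of a group) across each junction of 1 annotated transcript (x axis, exon numbers) for Kcnab1, Ttyh1, Scn11a and Cacna1a. Kcnab1 is spliced from exon 2 on in TAZ4A, Ttyh1 from exon 6 on in all groups, Scn11a along its length in TAZ-CAMTA1, and Cacna1a almost only between exons 45 and 46 in TAZ4A.

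Of the 6 calcium channel partners, 5 rose in TAZ-CAMTA1 against control and 0 fell, beside 16.8% and 15.3% of all genes. Without replicate 2, 4 rose and 0 fell, beside 28.5% and 32.3%. In TAZ4A 2 rose and 2 fell, beside 13.2% and 11.7%. Cacnb3, the cytoplasmic beta-3 subunit that carries pore subunits to the membrane, was at 23.5, 21.7 and 21.7 CPM in the control libraries, against 37.2, 37.3 and 35.2 CPM with TAZ4A and 49.5, 55.1 and 46.7 CPM with TAZ-CAMTA1. The groups did not overlap, and the log2 fold change was 0.70 ± 0.08 (adjusted p = 0.00032) in TAZ4A and 1.16 ± 0.08 (adjusted p = 2.7e-05) in TAZ-CAMTA1. Cacna2d4, an alpha-2-delta subunit known from the retina, was at 2.23, 2.18 and 2.54 CPM in the control libraries, against 0.960, 1.29 and 0.951 CPM with TAZ4A and 4.75, 4.60 and 4.45 CPM with TAZ-CAMTA1. It was lowest in TAZ4A and highest in TAZ-CAMTA1, at -0.85 ± 0.11 (adjusted p = 0.00059) and 0.86 ± 0.11 (adjusted p = 0.00061). Its few junction reads, 26 in control, 25 with TAZ4A and 60 with TAZ-CAMTA1, did not separate TAZ4A from control. They ran from 0.928 to 1.09 RPM in control and from 0.743 to 1.06 RPM with TAZ4A. Cacna2d1, the alpha-2-delta subunit that gabapentin binds, showed the other pattern, 0.696, 0.777 and 0.752 CPM in control, 2.10, 2.05 and 2.70 CPM with TAZ4A and 0.833, 0.604 and 1.13 CPM with TAZ-CAMTA1. It rose in TAZ4A (1.16 ± 0.16, adjusted p = 0.00077) and was lower in TAZ-CAMTA1 than in TAZ4A (-1.05 ± 0.16, adjusted p = 0.0011). Cacng1, the gamma-1 subunit of skeletal muscle, was at 1.72, 1.82 and 1.32 CPM in control, 0.371, 0.556 and 0.399 CPM with TAZ4A and 2.07, 3.79 and 2.44 CPM with TAZ-CAMTA1. It fell in TAZ4A (-1.17 ± 0.20, adjusted p = 0.0027), and its rise in TAZ-CAMTA1 (0.60 ± 0.20, adjusted p = 0.048) was lost in 12 of 22 alternatives, including without any one control or TAZ4A library or TAZ-CAMTA1 replicate 3 (adjusted p = 0.063 to 0.16), and was 0.38 (adjusted p = 0.040) without TAZ-CAMTA1 replicate 2. None of the 420 reads assigned to Cacng1 was accompanied by a unique read over its 3 introns in any library. Cacng7 and Cacng8, gamma subunits better known as partners of AMPA receptors, rose in TAZ-CAMTA1 against control, at 0.52 ± 0.13 (adjusted p = 0.014) and 0.40 ± 0.12 (adjusted p = 0.034). Without replicate 2 Cacng8 was not called (adjusted p = 0.063).

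The 3 pore subunits of calcium channels were low in every library. Cacna1a, the P/Q-type pore of nerve terminals, was at 1.76, 2.09 and 2.38 CPM in the control libraries, against 4.40, 4.74 and 5.16 CPM with TAZ4A and 1.39, 3.32 and 2.18 CPM with TAZ-CAMTA1. TAZ4A lay above the other groups (1.03 ± 0.23, adjusted p = 0.011), a call lost without control replicate 1 (adjusted p = 0.052). Its junction reads did not cover the gene: in TAZ4A 4 of 46 introns of Cacna1a-201 had reads. Over the annotated introns of any transcript TAZ4A had 34 reads, 30 of them at the junction of exons 45 and 46 shown above. In all other libraries together 1 read fell on any annotated intron. Cacna1a exons overlap the antisense gene Gm16183. Cacna1g, a T-type pore, had 7 reads in control, 77 with TAZ4A and 59 with TAZ-CAMTA1. The ratio of TAZ4A to control was 9.65 (exact 95% interval 4.47 to 24.8, counting error only), and the fitted differences were 1.13 ± 0.13 (adjusted p = 0.00028) in TAZ4A and 1.02 ± 0.13 (adjusted p = 0.00053) in TAZ-CAMTA1. Since the gene passed the filter only through the construct libraries, a difference from control was built into its selection. The other T-type gene, Cacna1i, ranged from 0.269 to 0.921 CPM and was called in no comparison with all 9 libraries.

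Of the 6 TRP genes and Piezo1, which include the flow and stretch sensors of endothelium, 5 of 7 were called in no comparison. Trpm4, a calcium-activated channel for monovalent cations, was at 23.4, 23.9 and 23.8 CPM in the control libraries, against 14.2, 15.1 and 13.6 CPM with TAZ4A and 28.3, 32.7 and 27.3 CPM with TAZ-CAMTA1. It was lowest in TAZ4A (-0.71 ± 0.09, adjusted p = 0.00041) and highest in TAZ-CAMTA1 (0.30 ± 0.09, adjusted p = 0.028). The rise was lost without any one control library or TAZ4A replicate 1 (adjusted p = 0.086, 0.078, 0.083 and 0.055), while the difference between the constructs was 1.01 ± 0.09 (adjusted p = 4.8e-05). Trpv2, a cation channel that responds to stretch and heat, was at 0.743, 0.508 and 0.470 CPM in control, 0.929, 1.11 and 1.01 CPM with TAZ4A and 2.04, 1.54 and 1.96 CPM with TAZ-CAMTA1. It rose by 0.51 ± 0.13 and 1.13 ± 0.13 on the log2 scale. Its junction reads, 22 in control, 27 with TAZ4A and 68 with TAZ-CAMTA1, did not separate TAZ4A from control. They ran from 0.516 to 1.23 RPM in control and from 0.637 to 1.11 RPM with TAZ4A. Piezo1 was at 164, 147 and 162 CPM in control, 153, 150.3 and 143 CPM with TAZ4A and 152, 106 and 154 CPM with TAZ-CAMTA1. Apart from TAZ-CAMTA1 replicate 2, its libraries overlapped, and it was not called with or without that library. Trpm7 was at 149.6, 139 and 172 CPM in control, 144, 135 and 154 CPM with TAZ4A and 144, 63.4 and 139.9 CPM with TAZ-CAMTA1, with the same library low, and was not called either way. Trpv4, the osmosensitive channel of endothelium, was at 0.604, 0.598 and 0.501 CPM in control, 0.619, 0.936 and 0.460 CPM with TAZ4A and 0.833, 0.940 and 1.09 CPM with TAZ-CAMTA1. It was not called with all 9 libraries and rose in TAZ-CAMTA1 against control without replicate 2 (0.45, adjusted p = 0.036). Trpc2, a channel of the vomeronasal organ, and Trpm3 ranged from 0.696 to 1.28 and from 0.627 to 1.17 CPM and were called in no comparison with all 9 libraries.

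The tweety family gave the largest fall. Ttyh1, best known from neural stem cells and glia, was at 26.6, 24.99 and 26.6 CPM in the control libraries, against 2.75, 2.05 and 2.55 CPM with TAZ4A and 16.6, 18.4 and 18.1 CPM with TAZ-CAMTA1. TAZ4A averaged 0.0940 of the control level, with TAZ-CAMTA1 between them and no overlap. The log2 fold change was -3.18 ± 0.11 (adjusted p = 1.9e-07) in TAZ4A and -0.54 ± 0.11 (adjusted p = 0.0049) in TAZ-CAMTA1. The reads came from the 3′ part of the gene. All 5 junctions from exon 1 to exon 6 of Ttyh1-202 had 0 unique reads in all 9 libraries, while 6 of 7 introns from exon 6 on had reads. Over the annotated introns of the gene, of any transcript, there were 682 reads in control, 76 with TAZ4A and 507 with TAZ-CAMTA1. No junction of 3 or more reads within the gene joined exon 6 to an upstream exon. The RefSeq window at the annotated start therefore lies upstream of exons that these reads do not cross, and it is not shown. Ttyh3 was at 763, 693 and 765 CPM in the control libraries, against 389.8, 398 and 366 CPM with TAZ4A and 783, 644 and 730.4 CPM with TAZ-CAMTA1. It fell in TAZ4A to 0.519 of the control mean (-0.94 ± 0.09, adjusted p = 9.8e-05), with every TAZ4A library below every other, and was not called in TAZ-CAMTA1. Ttyh2 was at 26.3, 22.2 and 20.3 CPM in control, 28.9, 28.6 and 29.9 CPM with TAZ4A and 37.0, 37.1 and 39.9 CPM with TAZ-CAMTA1. It rose in both, at 0.35 ± 0.10 (adjusted p = 0.034) and 0.72 ± 0.10 (adjusted p = 0.00085).

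Of the 11 CLC and anoctamin genes, 0 were called as rising in TAZ4A and 1 fell, and in TAZ-CAMTA1 1 rose and 3 fell. Of all genes, 13.2% rose and 11.7% fell in TAZ4A, and 16.8% and 15.3% in TAZ-CAMTA1. Without TAZ-CAMTA1 replicate 2 the counts of the 11 became 3 and 3, and 3 and 5, beside 28.1% and 30.3%, and 28.5% and 32.3% of all genes. Clcn7 was at 125, 117 and 115 CPM in control, 94.7, 93.6 and 92.4 CPM with TAZ4A and 101, 91.3 and 108 CPM with TAZ-CAMTA1. It fell in TAZ4A (-0.34 ± 0.08, adjusted p = 0.014) and in TAZ-CAMTA1 (-0.25 ± 0.08, adjusted p = 0.046), but the second call was lost in 14 of 22 alternatives and the first without control replicate 1 or any one TAZ4A library (adjusted p = 0.065, 0.052, 0.056 and 0.059). The losses of the second call included leaving out any one library of control or TAZ4A, or TAZ-CAMTA1 replicate 1 (adjusted p = 0.073 to 0.15). Clcn2, a plasma membrane chloride channel, was at 5.39, 6.07 and 5.70 CPM in control, 4.83, 4.97 and 5.03 CPM with TAZ4A and 3.70, 4.13 and 4.58 CPM with TAZ-CAMTA1. It fell in TAZ-CAMTA1 (-0.43 ± 0.10, adjusted p = 0.011). Clcn5, an endosomal exchanger mutated in Dent disease, was at 16.3, 12.8 and 19.96 CPM in control, 38.7, 34.6 and 39.8 CPM with TAZ4A and 18.4, 2.42 and 16.5 CPM with TAZ-CAMTA1. TAZ4A was above the other groups, and TAZ-CAMTA1 replicate 2 was far below the rest of its group. It was lower in TAZ-CAMTA1 than in TAZ4A (-1.96 ± 0.62, adjusted p = 0.037), a call lost without any one library of control or TAZ4A (adjusted p = 0.056 to 0.10). Without replicate 2 this difference was -1.09 (adjusted p = 3.9e-05), and it also rose in TAZ4A against control (1.20, adjusted p = 7.3e-06). Clcn3 was at 93.4, 86.1 and 96.8 CPM in control, 91.6, 85.7 and 96.1 CPM with TAZ4A and 154, 83.2 and 156 CPM with TAZ-CAMTA1. It was not called with all 9 libraries, and without replicate 2 it rose in TAZ-CAMTA1 (0.75, adjusted p = 3.1e-08). The exchanger genes Clcn4-2 and Clcn6 ranged from 30.5 to 57.0 and from 4.20 to 13.98 CPM, with TAZ-CAMTA1 replicate 2 lowest in each, and were not called with all 9 libraries.

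Of the 5 anoctamins, Ano6 was at 282, 271 and 289 CPM in control, 217, 212 and 216 CPM with TAZ4A and 248.7, 160.4 and 249.5 CPM with TAZ-CAMTA1. Both constructs lay below control in every library, and it was called not with all 9 libraries but without replicate 2 (-0.38, adjusted p = 6.8e-07 in TAZ4A, -0.17, adjusted p = 0.0042 in TAZ-CAMTA1). Ano3, a gene known from inherited dystonia, was at 20.3, 16.3 and 19.5 CPM in the control libraries, against 29.9, 26.01 and 30.3 CPM with TAZ4A and 12.3, 5.41 and 12.9 CPM with TAZ-CAMTA1. TAZ4A was above and TAZ-CAMTA1 below control with no overlap. It fell in TAZ-CAMTA1 against control (-0.93 ± 0.29, adjusted p = 0.038), a call lost without any one library of control or TAZ4A (adjusted p = 0.059 to 0.11). Without TAZ-CAMTA1 replicate 2 the fall was -0.54 (adjusted p = 9.6e-05). The constructs differed by -1.53 ± 0.29 (adjusted p = 0.0035). Ano8, a tether between endoplasmic reticulum and plasma membrane, was at 18.2, 15.7 and 17.5 CPM in control, 19.1, 19.4 and 18.4 CPM with TAZ4A and 28.0, 22.6 and 27.6 CPM with TAZ-CAMTA1. It rose in TAZ-CAMTA1 (0.59 ± 0.10, adjusted p = 0.0029). Ano1, the calcium-activated chloride channel, and Ano10 ranged from 6.65 to 10.6 and from 42.8 to 51.9 CPM and were called in no comparison with all 9 libraries. Trpc4ap, the adaptor that matched by symbol alone, was at 297, 298 and 294 CPM in control, 271, 272 and 269 CPM with TAZ4A and 250.1, 265 and 256 CPM with TAZ-CAMTA1. Its fall in TAZ-CAMTA1 (-0.21 ± 0.06, adjusted p = 0.031) was lost without any one of the 9 libraries other than TAZ-CAMTA1 replicate 2 (adjusted p = 0.060 to 0.098).

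**Figure D5:**
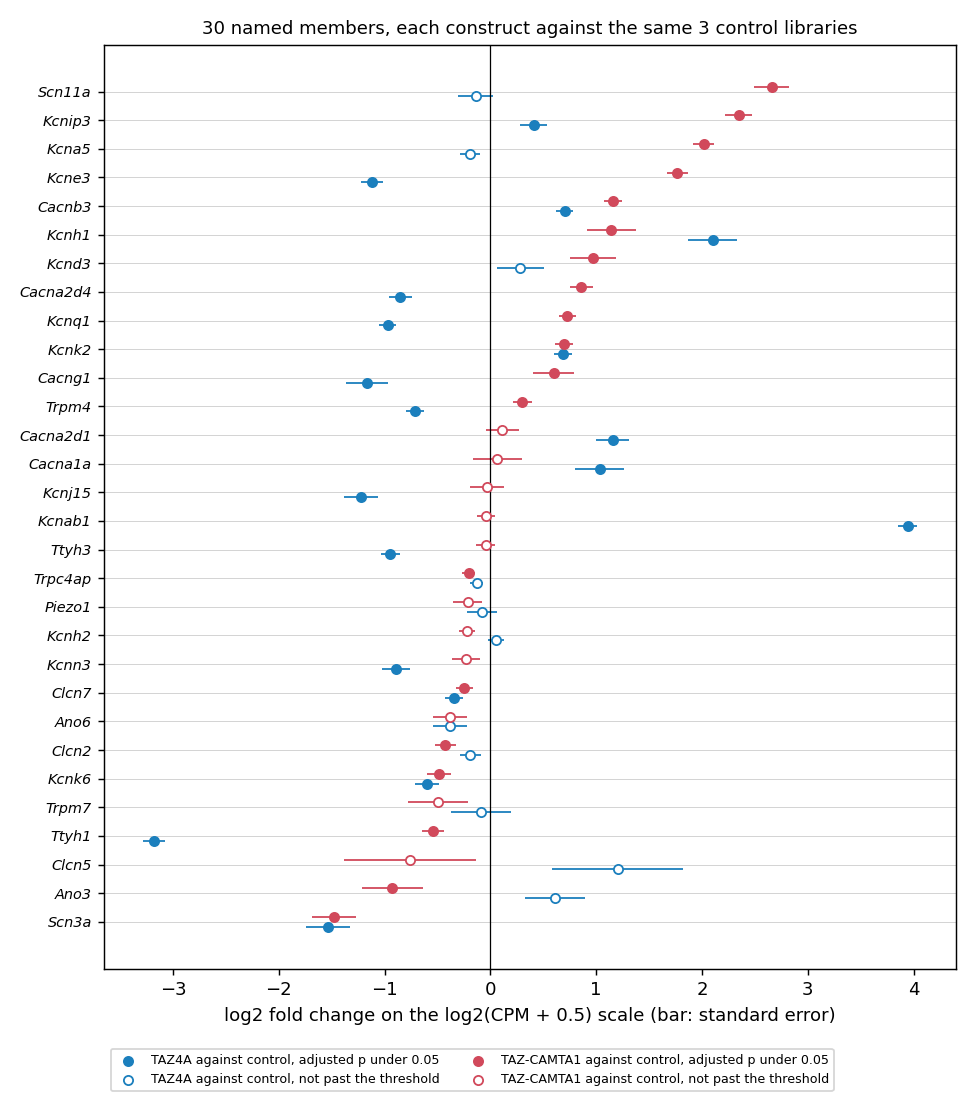
Log2 fold change on the log2(CPM + 0.5) scale with its standard error for 30 genes named by rule, TAZ4A (blue) and TAZ-CAMTA1 (red) each against the same 3 control libraries; filled points have adjusted p under 0.05 (limma). Kcne3, Kcnq1, Cacna2d4, Cacng1 and Trpm4 have filled points on either side of 0, and Kcnab1 and Ttyh1 lie farthest out in TAZ4A.

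All 52 genes were found in the GENCODE vM21 annotation, 2 of them under another symbol (Clcn4-2 as Clcn4, Scn2a1 as Scn2a). In 20, exons overlap another gene, and in 7 a protein-coding one, so a part of their reads may belong to a neighbour. Over all libraries, 22 of the 50 genes with an intron had unique reads on every intron of the chosen transcript, and 30 on at least 90 percent of them. Fewer than 50 percent were crossed in 5: Trpm3, Cacng1, Cacna1a, Kcnj15 and Kcnk2. The other 2 genes, Kcna5 and Kcnq1ot1, are single exons.

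In the authors' deposited table, with a false discovery rate under 0.05, 10 of the 52 rose and 11 fell in TAZ4A against control, 19 and 5 in TAZ-CAMTA1 against control, and 22 and 6 between the constructs. The share of all genes called in that table was not counted, so these counts have no background beside them. The authors' deposited table and the fit used here gave the same call for 47, 48 and 50 of the 52, and 0 had opposite calls. With no filter on low values, 19 of all 127 symbols rose and 12 fell in TAZ4A against control, 23 and 6 in TAZ-CAMTA1 against control, and 24 and 14 between the constructs. Beside these, 11.8% of all genes rose and 7.88% fell under the same setting, then 12.6% and 9.99%, and 13.7% and 14.6% (in either direction 19.7%, 22.6% and 28.2%). Of the 127, the 75 symbols under the threshold contributed 8 and 0, 3 and 1, and 3 and 7.

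Channels, pumps and calcium entry genes outside the symbol pattern were taken from a list of 77, of which 72 were in the table and 46 passed the filter. In TAZ4A against control 6 rose and 13 fell, in TAZ-CAMTA1 8 rose and 10 fell, and between the constructs 12 rose and 8 fell. As shares of the 46 these were 13.04% and 28.3%, 17.4% and 21.7%, and 26.1% and 17.4%, beside 13.2% and 11.7%, 16.8% and 15.3%, and 19.4% and 18.5% of all genes. Without TAZ-CAMTA1 replicate 2 these were 8 and 27, 12 and 15, and 25 and 10, beside 28.1% and 30.3%, 28.5% and 32.3%, and 30.8% and 32.2% of all genes. Without any one library of control or TAZ4A 6 to 8 genes fell in TAZ4A, while 900 to 972 of all genes fell in place of 1447. Store-operated calcium entry runs through Stim sensors and Orai pores. All 3 Orai genes fell in TAZ4A: Orai1 from 46.7 ± 2.17 to 30.9 ± 2.78 CPM (SD, n = 3), Orai2 from 141 ± 1.24 to 70.2 ± 0.840 and Orai3 from 33.3 ± 0.810 to 25.2 ± 1.04. Their adjusted p-values by limma were 0.031, 6.8e-06 and 0.033. Of the sensors in TAZ4A, Stim2 fell slightly (-0.22 ± 0.07, adjusted p = 0.036) and Stim1 was not called (0.13 ± 0.17, adjusted p = 0.66). In TAZ-CAMTA1 Orai2 fell, to 84.3 ± 2.15 CPM. The volume-regulated anion channel subunit Lrrc8a fell in TAZ4A (-0.65 ± 0.09, adjusted p = 0.00075) and rose in TAZ-CAMTA1 (0.35 ± 0.09, adjusted p = 0.016). Among ion pumps, the sodium pump beta subunit Atp1b1 rose from 36.3 ± 1.88 to 109 ± 1.45 CPM in TAZ4A and fell to 13.9 ± 0.857 in TAZ-CAMTA1. The reticulum calcium pump Atp2a2 fell in TAZ-CAMTA1 (-0.90 ± 0.18, adjusted p = 0.0056), and the plasma membrane pump Atp2b4 rose in both (1.10 ± 0.33, adjusted p = 0.040 and 2.04 ± 0.33, adjusted p = 0.0020). Clic5, a chloride intracellular channel family protein, rose in TAZ-CAMTA1 from 23.0 ± 2.25 to 88.3 ± 21.4 CPM. Panx3, a pannexin of bone and skin, was listed at 4.76 ± 0.337 CPM in TAZ4A and had 0 reads in the other 6 libraries. The named genes of this list were picked after their values were seen.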

How the data were processed

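RNA of 9 MS1 libraries was sequenced after poly-A purification with a stranded kit, per the labels' protocols. The submitters' processing notes name bcl2fastq, FastQC, STAR, featureCounts, edgeR and the build mm10, with no versions or settings. The deposited gene values used here, named CPM by the authors, are a signal (a gene's reads over a library size that was itself scaled), with library sums of 976997 to 1028367. Whole reads were recovered from them (100% of values within 0.01 of a whole number). The authors also deposited TPM for the same genes, and their own log2 fold changes with FDR (p-value adjusted for many tests). Junction counts of uniquely and multiply mapped reads were deposited per library in STAR's layout.

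Tests used limma 3.58.1 (trend and robust variance, R 4.3.3) on log2(CPM + 0.5) of the 12350 genes that reached 0.5 CPM in 3 or more libraries, all 9 libraries in one fit with 6 residual degrees of freedom, and Benjamini-Hochberg adjustment over all genes tested. The fit was tested on simulated data. Alternatives included edgeR 4.0.16 and DESeq2 1.42.0 on the recovered reads. Genes named with full values were the up to 8 largest called rises and falls per comparison with 2 CPM or more in the higher group, the most abundant gene of each class, the 5 most abundant overall and Piezo genes. Kcnq1ot1, Kcnab3, Cacna1g, Cacng7, Cacng8, Trpv2, Trpv4, Ttyh2, Clcn3 and Ano8 were added after their values were seen. The members and all lists were chosen with earlier results of these data known. Junctions were matched to GENCODE vM21 transcripts on GRCm38, and promoters to RefSeq. Counting intervals are exact and at the 95 percent level. Reads without molecular identifiers are not independent molecules, so these intervals and the floor of 3 reads cover counting error only. The values of 2 members are not reported here. Transcript tables were not used here, and protein letters were not searched.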

Additional observations from a re-analysis of the deposited data

How the results depend on the processing

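Counts and named fold changes were recomputed under 22 alternatives: other pseudocounts, filters, scalings, units and annotation, count tests, fits on fewer or weighted samples, a replicate block, and each library left out in turn. Of 64 called fold changes of the genes named by rule, 52 were called under every alternative that gave a value, 0 reversed, and 94 of 1406 alternative values lost the call. The called genes added after their values were seen (Kcnab3, Cacna1g, Cacng7, Cacng8, Trpv2, Ttyh2 and Ano8) were not in this count. How far their calls hold under all alternatives is not given here. Among these 64, the lost calls were those of Ano3, Cacng1, Clcn2, Clcn7, Trpc4ap and Trpm4 in TAZ-CAMTA1, of Cacna1a, Clcn7 and Kcnip3 in TAZ4A, and of Clcn5, Kcnd3 and Kcnh2 between the constructs. The cause of these losses was not tested. Clcn2 was lost only with the 6 samples compared (adjusted p = 0.052).

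With the 6 samples compared, 3 ion channel genes fell in TAZ-CAMTA1 against control. With library quality weights, which gave TAZ-CAMTA1 replicate 2 a weight of 0.0287, 19 ion channel genes rose in TAZ4A against control and 11 fell in TAZ-CAMTA1 against TAZ4A. In the same comparisons, 992 of all 12350 genes fell with the 6 samples compared, and 3573 rose and 4213 fell with weights. By edgeR on the recovered reads 3078, 3942 and 4674 of all genes were called in the 3 comparisons, beside 3077, 3966 and 4684 by limma. Of the other ion transport genes, 8 fell in TAZ4A with the same sum in every library and 27 with the 6 samples compared or with weights, and 25 rose in TAZ-CAMTA1 against TAZ4A with weights. Of all genes 1108, 3751 and 3859 fell in TAZ4A under these settings in turn, and 4059 rose between the constructs with weights. The cause was not tested. Deposited TPM moved the median log2 fold change of all genes to -0.13, from -0.02, in TAZ-CAMTA1 against TAZ4A.

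Leaving out 1 library at a time, ion channel genes that rose and fell numbered 8 to 17 and 11 to 17 in TAZ4A, 18 to 24 and 4 to 10 in TAZ-CAMTA1, and 19 to 26 and 5 to 9 between the constructs. For the other ion transport genes these were 5 to 8 and 6 to 27, 6 to 12 and 8 to 15, and 9 to 25 and 7 to 10. Over all genes they were 1194 to 3465 and 900 to 3741, 1515 to 3525 and 1111 to 3991, and 1675 to 3802 and 1561 to 3977.

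The 2 called fold changes of Kcnn3 had no value at a minimum of 2 CPM.

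Between the constructs, 3 fold changes that were not called changed sign. Ano6 was 0.0376 with quantile normalization, 0.2003 with weights, 0.0289 by edgeR and 0.0271 by DESeq2, and -0.108 to 0.2101 with 1 library left out. With weights and without TAZ-CAMTA1 replicate 2 (0.2101) it was called as higher in TAZ-CAMTA1 (adjusted p = 0.00067 and 0.00083), as were Clcn7 (0.1411 and 0.1629, adjusted p = 0.012 and 0.014) and Scn3a (0.3286 and 0.3169, adjusted p = 0.0092 and 0.024). Clcn7 was -0.0156 and Scn3a -0.0041 with deposited TPM, and Scn3a was -0.1296 to 0.3169 with 1 library left out.

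Replicate numbers are shared by the groups, and nothing in the labels ties a number to a shared batch or day. Same-numbered libraries deviated from their group means with correlations of -0.12 to 0.52 over 9 pairs (median 0.18, 8 above 0 and 6 above 0.1), against -0.53 to 0.56 for 18 other pairs (median -0.069, 5 above 0). Since 3 of the 9 were not above 0.1, and control replicate 3 correlated more with TAZ-CAMTA1 replicate 1 (0.56) than with replicate 3 (0.39), the numbers were not taken as pairs, although the medians are a hint of a shared deviation. With the replicate block, Kcnip3 in TAZ4A (adjusted p = 0.065) and Clcn7 and Trpc4ap in TAZ-CAMTA1 (0.069 and 0.064) were not called. With it, 9 ion channel genes rose and 12 fell in TAZ4A, 21 and 5 in TAZ-CAMTA1, and 21 and 8 between the constructs. For the other ion transport genes these were 6 and 10, 9 and 10, and 11 and 8. Over all genes they were 1551 and 1339, 2067 and 1814, and 2365 and 2254. Genes near 0.5 CPM rest on few reads per library.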
